A study of Mus musculus with 16 samples.

Results

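The 8 troponin genes of the mouse (Tnnt1, Tnnt2 and Tnnt3 for troponin T, Tnni1, Tnni2 and Tnni3 for troponin I, Tnnc1 and Tnnc2 for troponin C) were examined for MyoD binding and for acetylation of histone H3 at lysine 27 (H3K27ac), a mark of active promoters and enhancers, in cultured satellite cells, which are muscle stem cells. For each antibody, touching or overlapping peaks of its 4 libraries were joined into a single region. A region was taken for a troponin gene when it overlapped the gene body, or lay within 50 kb with that gene as the nearest protein-coding gene. These rules gave 11 of the 24420 MyoD regions and 22 of the 60038 H3K27ac regions, for 8 of 21887 protein-coding genes.

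The cells came from hindlimb muscle of C57BL/6 mice. Knockdown libraries, with the genotype label LncMyoD-KD, came from cells given small interfering RNA against LncMyoD, a long noncoding RNA, for 48 h. Control libraries carry the genotype label control, but the treatment text naming the LncMyoD interfering RNA is the same for them, so the treatment of the controls is unclear. Each antibody was used on 2 knockdown and 2 control libraries, giving 8 libraries with peak lists among 16 samples, and the 8 input samples were not analysed here. Whether a group's libraries derive from different mice or cultures is not stated, and their spread may be technical only. No RNA was measured, so neither the knockdown nor expression of the troponin genes could be checked.

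Troponin is the calcium switch of the thin filament of striated muscle. Troponin C binds calcium, troponin I holds back the interaction of actin and myosin until calcium is bound, and troponin T anchors the complex to tropomyosin. Slow fibres use the products of Tnnt1, Tnni1 and Tnnc1, fast fibres those of Tnnt3, Tnni2 and Tnnc2, and the adult heart those of Tnnt2, Tnni3 and Tnnc1. Tnnt2 is also transcribed in embryonic and regenerating skeletal muscle. MyoD, a basic helix-loop-helix factor of the muscle lineage, binds E-boxes, written CANNTG, and favours CAGCTG.

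The troponin I and T genes lie next to each other in pairs. Tnni1 and Tnnt2 are 25.3 kb apart on chromosome 1 (mm10, the build of the files, with gene positions from RefSeq on GRCm38.p6), with Lad1 between them. On chromosome 7, Tnnt1 and Tnni3 are 2.33 kb apart, and Tnni2 and Tnnt3 are 54.4 kb apart with Lsp1 between them. Prr33, listed as a noncoding gene, overlaps the lower end of Tnnt3, and the Tnnt3 MyoD regions below lie within both. Tnnc1 is on chromosome 14 and Tnnc2 on chromosome 2.

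Promoter sequences are shown for 4 genes that differ in how near MyoD was called to their start. Each is the 300-base window from 250 bases before to 50 after a gene start, credited to RefSeq on GRCm38.p6 and written 5′ to 3′ on the strand of the gene, with every CANNTG in capitals. The Tnnt2 window (chr1:135836084-135836383, plus strand) overlapped a MyoD region of all 4 libraries, whereas the Tnnt1 window (chr7:4515926-4516225, minus strand) ended 29 bases short of one. The Tnni1 window (chr1:135799171-135799470, plus strand) and the Tnni3 window (chr7:4522479-4522778, minus strand) overlapped none.
Tnnt2: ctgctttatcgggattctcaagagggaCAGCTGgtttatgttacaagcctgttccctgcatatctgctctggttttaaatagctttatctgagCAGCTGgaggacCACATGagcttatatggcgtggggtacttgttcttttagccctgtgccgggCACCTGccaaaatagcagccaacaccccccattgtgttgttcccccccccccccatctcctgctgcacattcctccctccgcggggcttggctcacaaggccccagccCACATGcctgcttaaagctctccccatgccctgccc
Tnnt1: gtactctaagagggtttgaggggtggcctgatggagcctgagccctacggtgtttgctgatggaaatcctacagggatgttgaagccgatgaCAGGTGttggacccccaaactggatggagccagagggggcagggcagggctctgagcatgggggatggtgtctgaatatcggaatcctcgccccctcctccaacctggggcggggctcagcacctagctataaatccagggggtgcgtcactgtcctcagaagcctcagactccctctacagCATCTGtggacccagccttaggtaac
Tnni1: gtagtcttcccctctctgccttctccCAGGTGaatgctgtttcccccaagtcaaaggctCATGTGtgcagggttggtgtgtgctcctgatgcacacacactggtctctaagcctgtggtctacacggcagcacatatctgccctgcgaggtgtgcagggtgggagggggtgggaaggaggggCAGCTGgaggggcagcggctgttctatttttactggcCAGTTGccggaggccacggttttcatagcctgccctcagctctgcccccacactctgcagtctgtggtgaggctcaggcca
Tnni3: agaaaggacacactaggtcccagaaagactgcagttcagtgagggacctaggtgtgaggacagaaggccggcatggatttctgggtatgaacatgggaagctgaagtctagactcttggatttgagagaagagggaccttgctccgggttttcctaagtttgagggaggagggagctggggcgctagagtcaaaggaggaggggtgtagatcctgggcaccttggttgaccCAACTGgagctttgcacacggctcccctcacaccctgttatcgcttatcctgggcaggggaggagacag

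The Tnnt2 window held 5 CANNTG matches, of which 2 were CAGCTG, whose first bases lie at −223 and −157 relative to the gene start. All 5 lay inside the MyoD region. The CAGCTG at −223 was centred 25.5 and 11.5 bases from the MyoD summit in knockdown 1 and 2, and 70.5 and 54.5 bases from it in control 1 and 2. The one at −157 was 40.5 and 77.5 bases from it in knockdown 1 and 2, and 136.5 and 120.5 in control 1 and 2. Both control summits lay before the first base of the window, where E-boxes were not searched. Which match, if any, MyoD bound is therefore not known. The Tnni1 window held 4 CANNTG matches including 1 CAGCTG, the Tnnt1 window 2 and the Tnni3 window 1. Of the 8 troponin promoter windows in the table, which belong to 6 genes (Tnnt1, Tnnt2, Tnni1, Tnni3, Tnnc1 and Tnnc2), all 8 held a CANNTG, against 69.0% of the 21263 windows of protein-coding genes. CAGCTG, a subset of CANNTG that reads the same on both strands, was in 3 of the 8, against 15.6% of all windows, and 2 of these 3 are overlapping Tnni1 windows that share the same match. CAGGTG or its reverse complement CACCTG, also subsets, occurred in 5 of the 8, against 19.7%. Both Tnnt2 windows are among these 5. A match describes the letters only. One of the 8 windows, the Tnnt2 window shown, overlapped a MyoD region of all 4 libraries, against 3.45% of all windows. Such an H3K27ac region overlapped 5, against 42.3%. These were both windows of Tnni1, both of Tnnt2 and that of Tnnt1, so the 5 are not independent.

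Every value of a region below is the fold enrichment over background that the authors' peak caller gave at the summit of the strongest peak in the region, a linear ratio that belongs to its own list. To set libraries side by side, the regions of an antibody present in all 4 libraries were ranked by this fold within each library. The percentile rank is the share of those regions with a lower fold, with a tied region placed midway among its ties. Peak lists hold no read counts, so depth is unknown. The MyoD lists held 16524 and 13146 peaks in knockdown 1 and 2 and 17818 and 17649 in control 1 and 2, and the H3K27ac lists held 54082 and 39964 against 46259 and 53048, so knockdown 2 was the shortest list for both antibodies. With 2 libraries against 2, the exact permutation test over the 6 assignments cannot give a p below 0.333, so no single region could pass 0.05.

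MyoD regions were found at 6 of the 8 troponin genes, against 40.3% of protein-coding genes. The slow gene Tnnt1 had the most regions that were called in every library. Of the 11 regions, 6 were present in all 4 libraries, where 40.8% of all MyoD regions were. They lay at Tnnt1, which had 3, and at Tnnt2, Tnni1 and Tnnc1, which had 1 each. By gene, 4 of 8 troponin genes had a MyoD region of all 4 libraries, against 22.8% of protein-coding genes. Tnni3 and Tnnc2 had no MyoD region. Knockdown 1 and 2 held 10 and 7 of the 11 regions, and control 1 and 2 held 9 and 7. None of the 11 was knockdown-only (a peak in both knockdown and neither control library), against 0.725% of all MyoD regions, and none was control-only, against 4.53%. At those background shares, 0 of 11 is not a result about these genes.

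**Figure D1:**
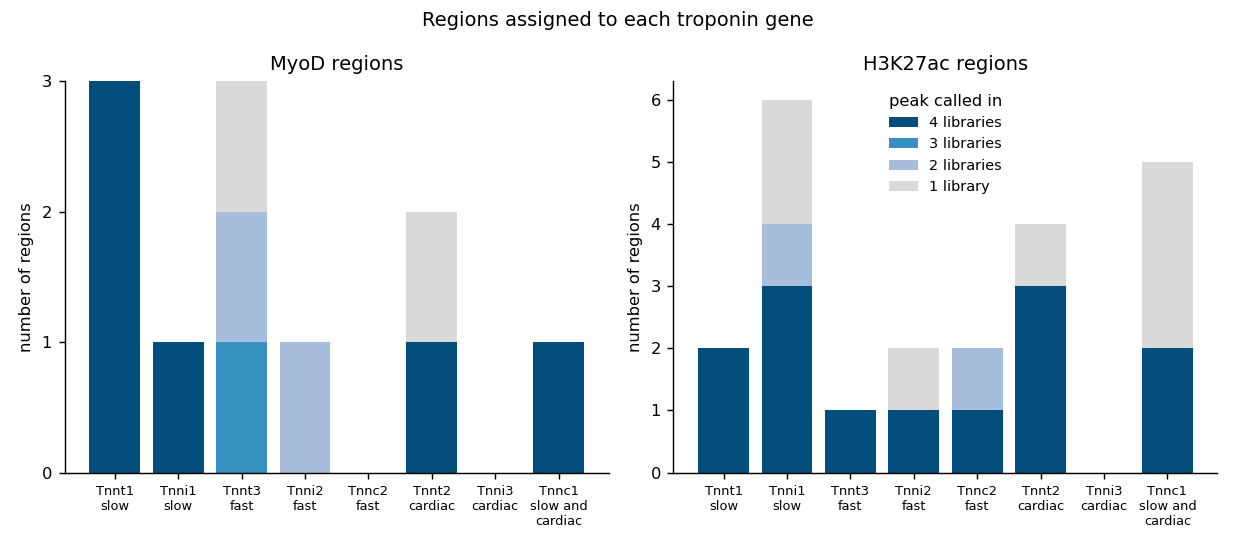
Number of MyoD regions (left) and H3K27ac regions (right) assigned to each troponin gene, with bar shading for the number of libraries, out of 4, in which a peak was called. Tnnt1 has 3 MyoD regions, all in 4 libraries, while the MyoD regions of the fast genes Tnnt3 and Tnni2 were called in 1 to 3 libraries.

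At Tnnt1, slow troponin T, the strongest MyoD region lay inside the gene (chr7:4509999-4510507), 5.73 kb past the gene start. Its fold was 9.95 and 9.01 in knockdown 1 and 2, against 10.2 and 12.6 in control 1 and 2. Both knockdown values were below both control values, and so were the percentile ranks, at 61.1 and 64.1 in knockdown 1 and 2 against 64.2 and 79.9 in control 1 and 2. The mean rank was 62.6 in the knockdown and 72.0 in the controls, a difference of −9.39 points (two-sided exact permutation p = 0.333), but knockdown 2 and control 1 were almost equal. The difference ranged from −16.7 to −1.52 points as each library was left out in turn. With equal peak numbers per library, 0 troponin MyoD regions had both knockdown ranks lower, so this separation was lost.

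A Tnnt1 region 1.39 kb past the gene start (chr7:4514369-4514790) went the other way. Its fold was 8.10 and 10.2 in knockdown 1 and 2 and 6.28 and 6.29 in control 1 and 2, with percentile ranks of 43.3 and 73.4 against 20.7 and 20.9. The groups did not overlap, and the mean rank was 37.6 points higher in the knockdown, at 58.4 against 20.8 in the controls (two-sided exact permutation p = 0.333, the smallest possible). The difference ranged from 22.6 to 51.1 points as each library was left out, and knockdown 2 was well above knockdown 1. A further Tnnt1 region, 0.28 kb upstream of the gene end that holds its start (chr7:4516255-4516851), had folds of 6.999 and 6.66 in knockdown 1 and 2 and of 9.25 and 5.96 in control 1 and 2. There the knockdown values lay between those of the controls.

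Across the 6 troponin regions of all 4 libraries, these Tnnt1 sites were the only ones whose ranks did not overlap between the groups. That is 1 region with both knockdown ranks lower, where 15.9% of the 9958 MyoD regions of all 4 libraries were, and 1 with both higher, where 16.4% were. Counts of 1 in 6 each are near this background. With 6 regions and 2 libraries per group, they cannot decide whether MyoD shifted at troponin genes. The median difference in rank (knockdown minus control) was −1.36 points over the 6 regions and 0.0464 over all MyoD regions of all 4 libraries.

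At Tnnt2, cardiac and embryonic troponin T, the MyoD region over the gene start (chr1:135835897-135836359) was the one that holds the E-boxes shown above. Its fold was 3.53 and 7.84 in knockdown 1 and 2 and 8.59 and 8.61 in control 1 and 2. Knockdown 1 stood apart, with a percentile rank of 1.48 beside 51.7 in knockdown 2 and 48.4 and 50.8 in the controls. Both knockdown folds were below both control folds, but by rank the groups overlapped, and the difference of −23.0 points between means rests on knockdown 1. The other Tnnt2 region, inside the gene (chr1:135844441-135844748), had a peak in knockdown 1 alone, with a fold of 5.16.

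Tnnt3, fast troponin T, had 3 MyoD regions, all inside its gene body near the lower end, and none in all 4 libraries. The strongest (chr7:142498970-142499501) had a fold of 11.4 in knockdown 1, no peak in knockdown 2, and folds of 8.93 and 7.95 in control 1 and 2. Knockdown 2 instead had its peak just beside it (chr7:142499637-142499898), with a fold of 5.88, which no other library had. The third (chr7:142500032-142500481) had folds of 5.53 in knockdown 1 and 5.95 in control 1 and no peak in knockdown 2 or control 2. When peaks within 1000 bp were merged, or knockdown 2 was left out, Tnnt3 had 1 MyoD region in every library, so its absence from the constant regions turns on where 1 library placed a peak.

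**Figure D2:**
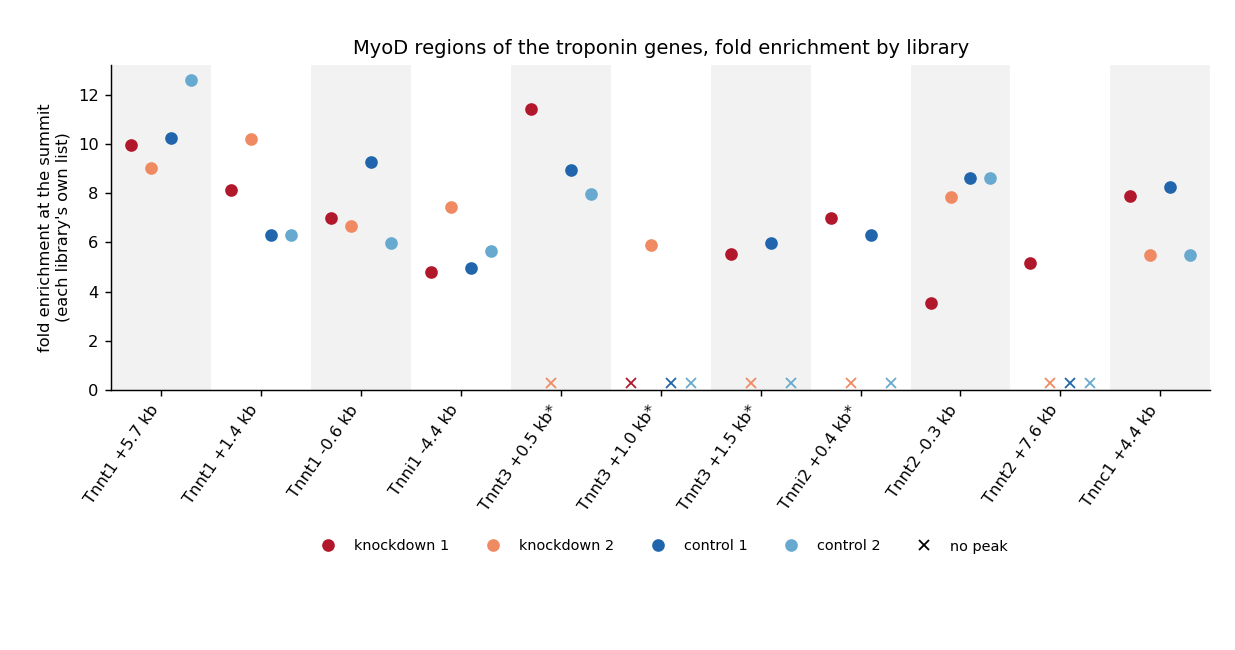
Fold enrichment of the 11 MyoD regions of troponin genes in each library, with crosses for libraries with no peak. Distances are from the summit to the nearest annotated gene start, or, with an asterisk, to the lower end of the gene body. Both knockdown values lie above both control values at Tnnt1 +1.4 kb and below them at Tnnt1 +5.7 kb and at the Tnnt2 start, where knockdown 1 is lowest.

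Among troponin I genes, slow Tnni1 had 1 MyoD region, 4.37 kb upstream of a gene start and inside the annotated body (chr1:135794855-135795288). Folds there were 4.81 and 7.45 in knockdown 1 and 2 and 4.96 and 5.63 in control 1 and 2, with overlapping groups. Fast Tnni2 had a region over the gene (chr7:142442104-142442349) with folds of 6.999 in knockdown 1 and 6.28 in control 1, and no peak in knockdown 2 or control 2. For cardiac Tnni3 no region of either antibody was assigned, and its promoter window lay 5627 bases from the nearest MyoD region. In the 2.33 kb between Tnnt1 and Tnni3 lay a MyoD region (chr7:4516255-4516851), and an H3K27ac region (chr7:4513497-4517504) reached into it. Both were assigned to Tnnt1, which the first lies nearer to and the second overlaps.

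Of the troponin C genes, Tnnc1, shared by slow muscle and heart, had 1 MyoD region 0.698 kb beyond its end (chr14:31212427-31212873). Its folds of 7.90 and 5.49 in knockdown 1 and 2 were close to the 8.26 and 5.50 of control 1 and 2, so libraries with the same replicate number were nearer to each other than libraries of a group. Fast Tnnc2 had none, and its promoter window was 9592 bases from the nearest MyoD region.

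By isoform class, slow genes (Tnnt1, Tnni1) had 4 MyoD regions, all in 4 libraries. Fast genes (Tnnt3, Tnni2, Tnnc2) had 4, of which 0 were, where 40.8% of all MyoD regions were. Of these fast regions, 3 lay near each other at Tnnt3. With peaks within 1000 bp merged, the fast genes had 1 MyoD region in every library. Cardiac genes (Tnnt2, Tnni3) had 2, of which 1 was in all 4 libraries, at Tnnt2. Of the 4 fast regions, knockdown 1 and 2 held 3 and 1, and control 1 and 2 held 3 and 1. Since 8 genes are not replicates of a class, no test was made, and the contrast is that of these genes. Among the markers counted below, 6 of 7 of fast fibres and 4 of 6 of slow fibres had a MyoD region of all 4 libraries. Over all protein-coding genes the share was 22.8%.

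H3K27ac regions of all 4 libraries were found at 7 of the 8 troponin genes, Tnni3 being the exception, against 54.0% of protein-coding genes. Of the 22 regions, 13 were in all 4 libraries, where 43.5% of all H3K27ac regions were, 2 were in 2 libraries and 7 in 1 library. Knockdown 1 and 2 held 19 and 13, and control 1 and 2 held 15 and 16, so knockdown 2, the shortest list, held the 13 constant regions and no other. None was knockdown-only, against 0.768% of all H3K27ac regions, and none was control-only, against 1.46%.

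The strongest acetylation lay at the troponin T genes Tnnt3 and Tnnt2. At Tnnt3 a region of 4827 bp reached from outside the lower gene end into the gene (chr7:142496309-142501135) and covered all 3 MyoD regions. Its fold was 16.01 and 16.2 in knockdown 1 and 2 and 15.6 and 14.4 in control 1 and 2, with percentile ranks of 89.1 and 95.04 against 92.6 and 85.4. The knockdown folds were above the control folds, but by rank the groups overlapped, and all 4 libraries placed the region high in their lists.

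Inside Tnnt2 a region of 4360 bp (chr1:135842229-135846588), with its summit 7.97 kb past a gene start, had folds of 18.9 and 14.3 in knockdown 1 and 2 and of 10.8 and 17.5 in control 1 and 2. Control 1 was lowest, and its percentile rank of 75.2 compared with 95.3 and 91.4 in knockdown 1 and 2 and 92.4 in control 2. MyoD had a peak there in knockdown 1 alone. Over the Tnnt2 start, a region of 3245 bp (chr1:135834425-135837669) had folds of 9.28 and 5.89 in knockdown 1 and 2 and of 7.14 and 10.4 in control 1 and 2, which overlap. A weaker region, just below the internal one (chr1:135841331-135842224), had folds of 5.64 and 3.14 in knockdown 1 and 2 and 2.66 and 4.42 in control 1 and 2.

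Tnnt1 carried a region of 4008 bp over its start (chr7:4513497-4517504), which covered both upstream-most MyoD regions, and one of 1705 bp inside the gene (chr7:4510139-4511843) that overlapped the third. The first had folds of 7.92 and 10.1 in knockdown 1 and 2 and 10.0 and 8.40 in control 1 and 2. The second had 8.37 and 6.50 in knockdown 1 and 2 and 6.14 and 7.69 in control 1 and 2. In both H3K27ac regions the groups overlapped.

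Acetylation at the troponin I and C genes was weaker. Tnni1 had 3 regions of all 4 libraries inside the gene, of which the strongest (chr1:135793908-135794672) had folds of 5.402 and 7.77 in knockdown 1 and 2 and 4.46 and 5.92 in control 1 and 2. Tnni2 had a region of 2107 bp over its lower end (chr7:142440837-142442943), with 6.32 and 4.32 in knockdown 1 and 2 and 5.14 and 5.33 in control 1 and 2. For both regions the groups overlapped. The other Tnni1 regions of all 4 libraries had folds of 3.72 to 5.19.

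Tnnc2, with no MyoD region, still had an H3K27ac region of all 4 libraries (chr2:164778474-164779300), at folds of 4.18 and 4.46 in knockdown 1 and 2 and 3.90 and 5.01 in control 1 and 2. Near the Tnnc1 start a region (chr14:31208496-31209202) had 3.30 and 4.46 in knockdown 1 and 2 and 4.09 and 3.73 in control 1 and 2. Their percentile ranks ran from 1.64 to 14.96 over the libraries, with the groups overlapping. The 9 H3K27ac regions missing from at least 1 library, at Tnnc1, Tnnc2, Tnni1, Tnni2 and Tnnt2, were weak, with folds of 2.11 to 4.33.

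The Tnnc1 region over the far end of the gene (chr14:31211693-31214139), which covered the Tnnc1 MyoD region, was the 1 troponin H3K27ac region whose ranks did not overlap. Its fold was 4.13 and 5.99 in knockdown 1 and 2 and 5.97 and 8.08 in control 1 and 2, so by fold the groups did overlap. The percentile ranks were 5.83 and 38.9 in knockdown 1 and 2 and 39.0 and 51.4 in control 1 and 2, a difference of −22.9 points between means of 22.4 and 45.2 (two-sided exact permutation p = 0.333). With peaks within 1000 bp merged, or with equal peak numbers per library, 0 troponin H3K27ac regions had both knockdown ranks lower, so this separation was lost. Without knockdown 1 the difference was −6.29 points and without knockdown 2 it was −40.6. Among the 13 constant troponin regions, 1 had both knockdown ranks lower, where 15.9% of the 26130 H3K27ac regions of all 4 libraries did, and 0 had both higher, where 16.4% did. The median rank difference over the 13 was −0.0191 points, against 0.156 over all such regions.

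**Figure D3:**
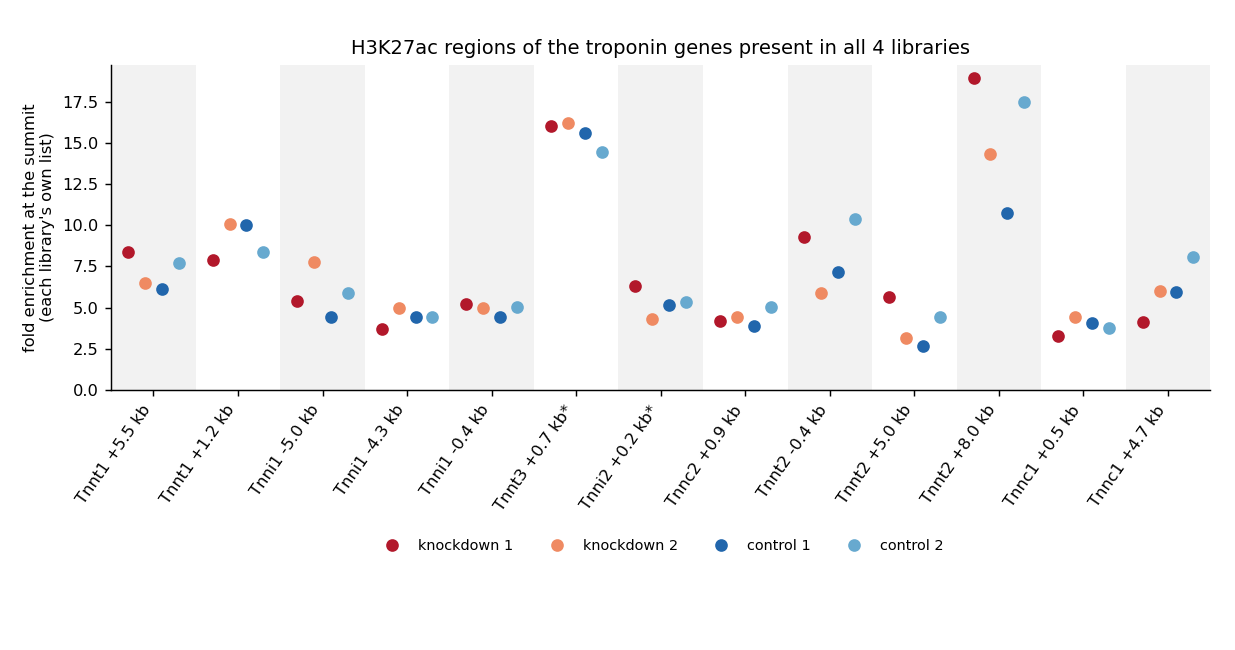
Fold enrichment of the 13 H3K27ac regions of troponin genes present in all 4 libraries, by library, with distances as in the plot of MyoD folds. Tnnt3 and the region inside Tnnt2 stand highest, with folds of 10.8 to 18.9 over the libraries.

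**Figure D4:**
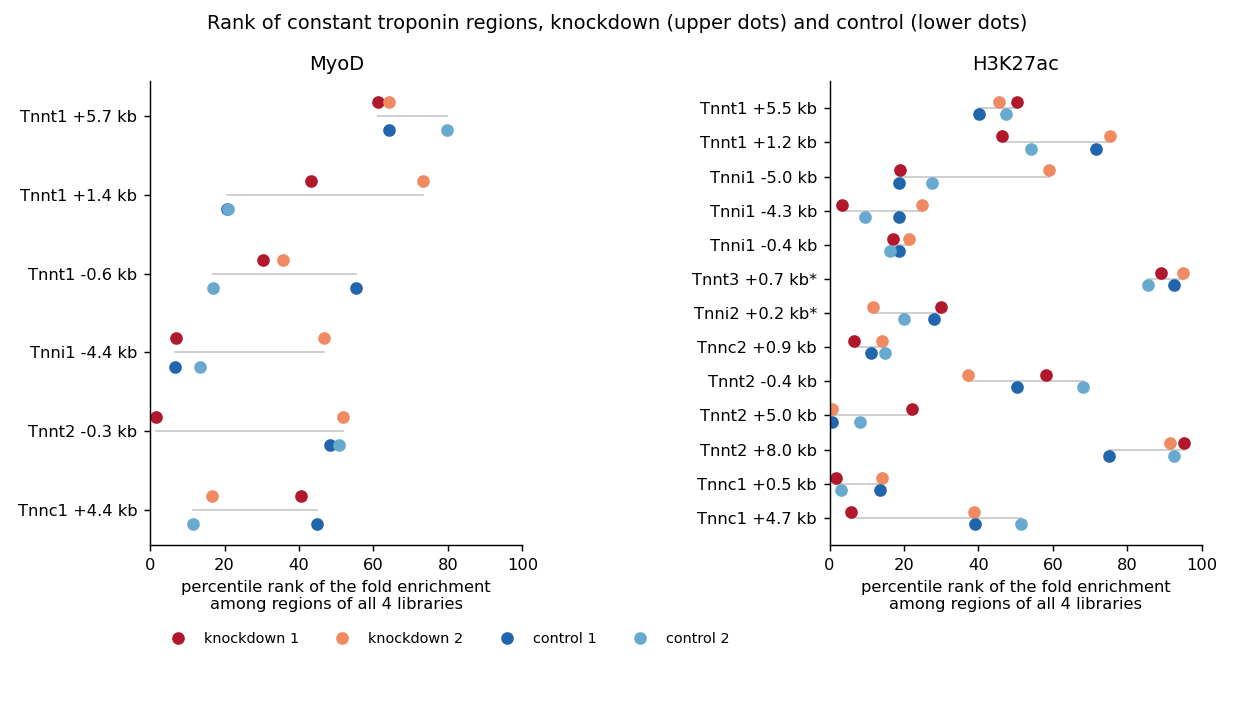
Percentile rank of the fold among regions of all 4 libraries for MyoD (left) and H3K27ac (right), with knockdown above control in each row. Groups are apart at Tnnt1 +5.7 kb and +1.4 kb for MyoD and at Tnnc1 +4.7 kb for H3K27ac, where knockdown 2 (38.9) and control 1 (39.0) nearly touch.

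Among the H3K27ac regions of all 4 libraries, the 13 constant troponin regions mostly ranked low. Their median fold was 5.64 and 5.89 in knockdown 1 and 2 and 5.14 and 5.92 in control 1 and 2. Peaks of the whole H3K27ac lists had lower median folds, of 4.55 and 5.74 in knockdown 1 and 2 and 4.65 and 4.91 in control 1 and 2. Those lists count every single peak, also peaks called in 1 library only, whereas a region's fold is that of its strongest peak. The 2 kinds of median are therefore not like for like. The median over the 13 of the mean rank was 22.4 in the knockdown and 24.0 in the controls, against 49.3 and 49.2 over all H3K27ac regions of all 4 libraries, with Tnnt3 and the internal Tnnt2 region far above the rest. For the 6 constant MyoD regions it was 30.8 in the knockdown and 32.2 in the controls, against 47.9 and 48.1. By library, however, their median rank was 35.5 and 49.2 in knockdown 1 and 2 and 46.6 and 18.9 in control 1 and 2. The MyoD regions were thus not low in every library. Widths of the constant regions were close to those of all, with medians of 1705 and 1676 bp for H3K27ac and 455 and 507 bp for MyoD. MyoD summits of the 4 libraries fell within 30 to 96 bases of each other at the 6 regions, with a median of 86 bases against 79 over all MyoD regions of all 4 libraries.

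All 11 troponin MyoD regions shared at least 1 base with an H3K27ac region, where 69.5% of all MyoD regions did, and among those of all 4 libraries it was 6 of 6, where 88.5% did. Library by library, every troponin MyoD region with a peak overlapped an H3K27ac peak of the library with the same group and number, at 10 of 10 and 7 of 7 in knockdown 1 and 2 and 9 of 9 and 7 of 7 in control 1 and 2. The shares over all MyoD regions were 77.2% and 65.8% in knockdown 1 and 2 and 70.1% and 71.4% in control 1 and 2. In the other direction, 8 of the 22 H3K27ac regions overlapped a MyoD region, where 26.4% of all did, and all 8 were among the 13 constant ones, where 44.7% of such regions did. Regions of 1 gene share a locus, so the 11 are not independent.

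**Figure D5:**
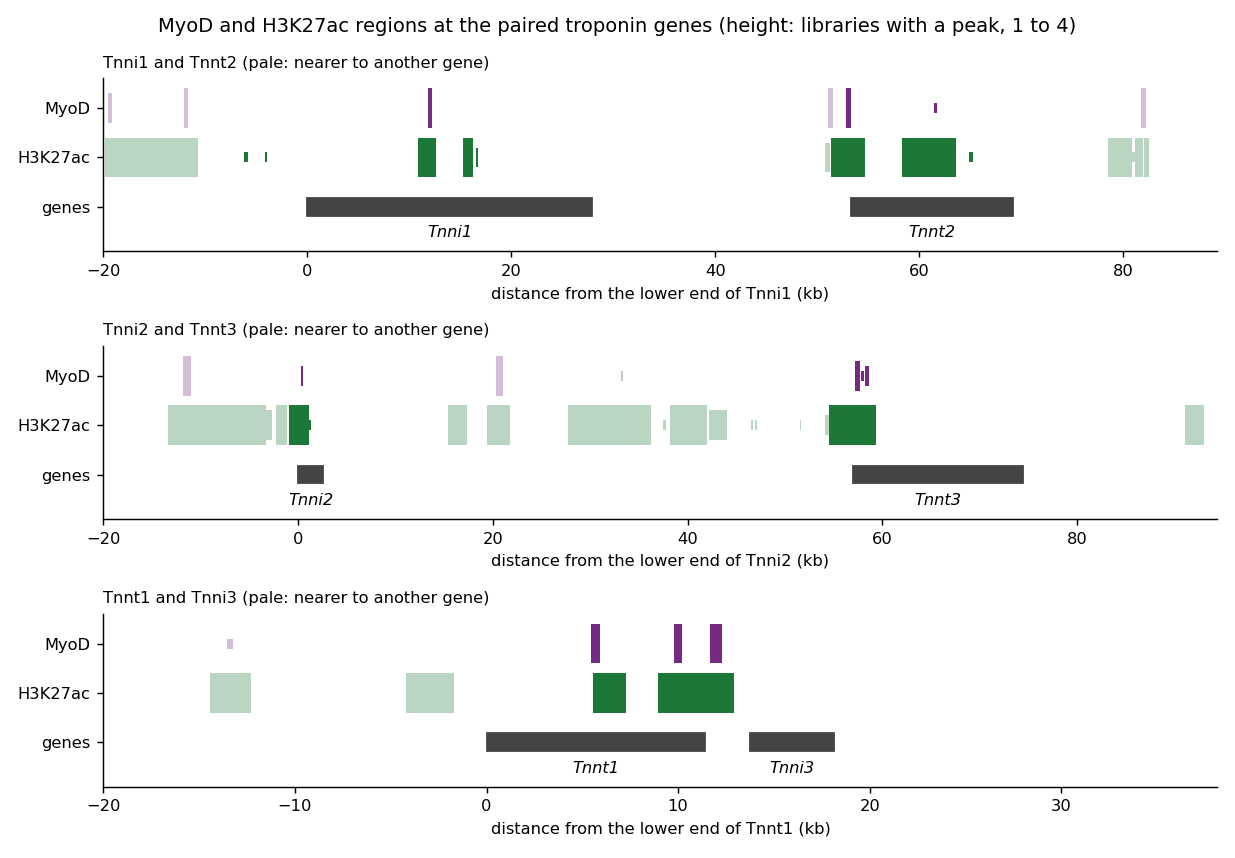
Maps of the 3 troponin I and T gene pairs, with distance in kb from the lower end of the first gene and bar height for the number of libraries with a peak, from 1 to 4. Regions assigned to a troponin gene are dark and regions nearer to another gene are pale. The Tnnt1 and Tnni3 map has all its dark regions at Tnnt1, and every dark MyoD bar stands above a green H3K27ac bar.

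For the other genes of the thin filament, 13 genes of actin, tropomyosin, nebulin and their partners (Acta1, Actc1, Tpm1, Tpm2, Tpm3, Neb, Nebl, Lmod2, Lmod3, Tmod1, Tmod4, Xirp1 and Xirp2) were counted in the same way. A MyoD region of all 4 libraries was at 9 of the 13 and an H3K27ac one at 12, compared with 4 and 7 of the 8 troponin genes and with 22.8% and 54.0% of protein-coding genes. Acta1, skeletal α-actin, had 4 such MyoD regions and Lmod3, a leiomodin that nucleates thin filaments, had 3. Of 40 MyoD regions 4 were control-only, at Tpm1, Tpm2, Neb and Xirp2, against 4.53% of all MyoD regions, and 0 were knockdown-only, against 0.725%. Of 86 H3K27ac regions 1 was control-only, at Actc1, cardiac α-actin, against 1.46% of all, and 0 were knockdown-only, against 0.768%. MyoD overlapped H3K27ac at 32 of the 40, where 69.5% of all MyoD regions did.

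Markers of the cells present were counted too. All 6 genes of the myogenic list, Pax7, Myf5, Myod1, Myog, Des and Cdh15, had an H3K27ac region of all 4 libraries, and so did 5 of 7 markers of fast fibres and 5 of 6 of slow fibres. Of 8 cardiac markers (Nkx2-5, Myh6, Myl7, Nppa, Nppb, Tbx5, Gata4 and Hand2) 0 had one, and 1, Myh6, had a MyoD region of all 4 libraries, beside Tnnt2 and Tnnc1, which carried both kinds. Among other cell types, such H3K27ac regions were at 3 of 5 smooth muscle and pericyte, 3 of 4 endothelial, 1 of 3 immune, 3 of 4 fibro-adipogenic and 2 of 3 Schwann markers. MyoD regions of all 4 libraries were at 5 of 6 myogenic, 6 of 7 fast and 4 of 6 slow markers, and at 2 of 5 smooth muscle and pericyte, 4 of 4 endothelial, 0 of 3 immune, 1 of 4 fibro-adipogenic and 1 of 3 Schwann markers. Over all protein-coding genes, the share with such a region was 22.8% for MyoD and 54% for H3K27ac. For MyoD, the 4 of 4 endothelial markers were well above this share, as were the myogenic, fast and slow markers. The MyoD counts of the other lists were nearer to it. For H3K27ac, the 0 of 8 cardiac markers were well below the share. The marker lists are short, so neither these counts nor those near the shares tell which cells were present. Peak lists give presence near a gene and no level of its RNA, and the part of other cells in the troponin values was not tested.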

How the data were processed

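Chromatin bound by the antibody was tagmented (ChIPmentation) and read as 100-nt pairs, per the labels' protocols. MACS2 2.1.1, Bowtie2 2.3.2, bedtools 2.26.0, SAMtools 1.3, Picard 2.9.2 and mm10 are named in the submitters' processing notes, with options and use of inputs not given in the sources used here. The authors deposited 1 peak list per library, with a fold enrichment (a ratio), −log10 p, −log10 q and a whole-number score. Each deposited score equals the whole part of 10 times −log10 q. No read counts are given, so precision per peak is unknown.

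Here, peaks were merged per antibody (gap 0 bp) and assigned to protein-coding genes of RefSeq GRCm38.p6, the assembly of mm10 (Python 3.11.15, pandas 2.3.3, scipy 1.17.1). All 8 troponin genes matched by symbol. A region's fold is that of its strongest peak. Ranks were taken among regions of all 4 libraries, since whole lists differ in length. Code was tested on simulated peaks. Regions described singly were the strongest of each gene, the strongest within 1 kb of a gene end, all group-only regions, and constant regions with ranks that did not overlap and differed by at least 10 points; the others complete the account. Gene ends without a strand in the tables are called lower ends. Exact permutation tests were two-sided. Troponin genes and lists were chosen with earlier results of these data known. Alternatives were a −log10 q of at least 5, a 1000-bp merge gap, gene bodies only, a 10-kb limit, equal peak numbers, other ranks, a stricter overlap, a replicate block and leaving out each library.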

Additional observations from a re-analysis of the deposited data

How the results depend on the processing

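Counts of troponin regions, of regions in every library and of group-only regions stayed within 1.5 times under the stricter q, the wider merge gap, gene bodies only, the 10-kb limit and equal peak numbers, except by isoform class. The fast genes then had 1 MyoD region in every library with the 1000-bp gap and 1 H3K27ac region in every library (against 3) with the stricter q. Counting Tnnc1 with the cardiac genes gave 2 MyoD and 5 H3K27ac regions in every library, against 1 and 3. Depth is unknown, and a missing peak says only that none was called.

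Regions with non-overlapping ranks, few to begin with, moved most. With both knockdown ranks lower there were 0 MyoD regions with equal peak numbers and 2 by rank among whole lists (an alternative chosen after seeing the data); for H3K27ac there were 0 with the wider gap and 0 with equal peak numbers, and 2 by rank of −log10 q and 2 among whole lists. By rank of −log10 q, 1 H3K27ac region had both knockdown ranks higher. The rank differences at the Tnnt1 and Tnnc1 regions kept their sign under every alternative run. The cause of these moves was not tested. CANNTG fell to 62.8% and CAGCTG to 12.1% of all promoters when bases after the gene start were dropped.

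The replicate numbers are shared by the groups, but no label says that they pair libraries. Deviations of same-numbered libraries correlated at 0.103 for MyoD and 0.155 for H3K27ac over regions (2 pairs). With a replicate block (knockdown n against control n, the same sign in both pairs), 2 MyoD regions were higher and 1 was lower, against 25.8% and 25.7% of all constant MyoD regions, and 1 H3K27ac region was higher and 2 were lower, against 26.4% and 25.7%.

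With 1 library left out, knockdown-only regions ranged from 0 to 1 for MyoD and 0 to 4 for H3K27ac (4 without knockdown 2), and control-only from 0 to 1 and 0 to 2. Non-overlapping ranks ranged from 1 to 3 (lower) and 2 to 3 (higher) for MyoD. For H3K27ac they ranged from 1 to 5 and 3 to 6. A group of 1 library overlaps less, and shares over all regions were not computed with a library left out. With all 4 libraries, 15.9% of all H3K27ac regions had a peak in knockdown 1 alone, as did 4 of the 22 troponin ones. MyoD regions of fast genes in every library ranged from 0 to 1 (1 without knockdown 2).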

Other observations

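Around the troponin genes, 18 MyoD regions and 62 H3K27ac regions lay within 50 kb but inside, or nearer to, another protein-coding gene, and 9 and 30 of them were present in all 4 libraries. Several were stronger for MyoD than any region assigned to a troponin gene. A region 11.01 kb below Tnni2 (chr7:142429977-142430802), nearest to the synaptotagmin gene Syt8, had MyoD folds of 17.2 and 21.6 in knockdown 1 and 2 and 20.2 and 18.9 in control 1 and 2. A region 34.4 kb above Tnnt3 (chr7:142550621-142551598), within the noncoding gene Nctc1 and nearest, among protein-coding genes, to Mrpl23, a mitochondrial ribosomal protein gene, had 28.0 and 19.6 in knockdown 1 and 2 and 22.8 and 24.5 in control 1 and 2. By fold, the groups were apart in neither case.

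Other regions stood beside Tnnt2 and Tnnc1. The region 1.75 kb below the Tnnt2 gene body (chr1:135834078-135834568), nearer to Lad1, had MyoD folds of 9.57 and 5.88 in knockdown 1 and 2 and 14.2 and 11.6 in control 1 and 2. Both knockdown folds were lower, but folds belong to their own lists, and ranks of this region were not set side by side. Inside Nisch, 30.01 kb below Tnnc1, a region (chr14:31177690-31178304) had 14.0 and 15.3 in knockdown 1 and 2 and 14.0 and 13.6 in control 1 and 2. These sites were picked after their values were seen and were not tested, and which gene they act on is not given by these data.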
